A study of Mus musculus with 28 samples.

Results

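Blastocysts labelled MZ_KO were compared with blastocysts labelled het, using every embryo with one of these titles and a column in the blastocyst table. That gave 3 MZ_KO embryos (numbers 2, 6 and 7) and 4 het embryos (3, 5, 6 and 8), 7 of the 28 samples in the series. The series title places the study around chromatin folding after fertilization and a metabolic switch between morula and blastocyst, both in relation to CTCF. All 7 samples are single whole blastocysts of the CD1 strain from the same sequencing batch. The labels give the genotypes as the codes MZ_KO and het only. They do not say which part of Ctcf is deleted, which Cre was used, or which embryos share a mother. The 3 MZ_KO titles carry the prefix C7 and the 4 het titles the prefix N89, so prefix and group cannot be told apart. Het 3 has a repeat library from another batch, not used here. M_KO blastocysts (4, prefix C7) are quoted for comparison, and they and the WT_flfl blastocysts (3, prefix N89), also CD1 and known by these codes only, share the fit and its estimate of the spread. Values run in the order MZ_KO 2, 6 and 7, then het 3, 5, 6 and 8.

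CTCF is a zinc finger protein that binds insulators and boundaries of chromatin loops and stops the cohesin complex that extrudes those loops. The mouse blastocyst is built from an outer epithelium, the trophectoderm, which pumps fluid into a cavity and forms the placenta, and an inner cell mass that divides into epiblast and primitive endoderm. Around the time the cavity forms, embryos of the mouse raise their uptake of glucose and their respiration.

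Read totals were 21649241 to 27343104 in MZ_KO and 14039645 to 27883060 in het embryos (exact two-sided permutation p = 0.257), and 13609 to 15268 genes were detected per embryo. Values are read counts scaled to a common library size (CPM), and differences are on the log2(CPM + 1) scale, which understates the change of genes near 0. In a principal component analysis of the 14 blastocysts in the table, the first component held 28.6% of the variance and set the MZ_KO embryos (51.5 to 76.65) apart from every other embryo (−36.04 to −3.26). Haemoglobin RNA took 0.164% to 0.743% of the scaled library in MZ_KO and 0.00245% to 3.1% in het embryos, and het 6 was the highest. The summed level of granulosa and cumulus cell markers was 49.3 to 224 CPM in MZ_KO and 27.3 to 70.9 CPM in het embryos (exact permutation p = 0.0571). The Y-linked genes Ddx3y and Eif2s3y were at or near 0 in MZ_KO 6 and het 8 and between 21 and 72.8 CPM in the other 5 embryos. Nothing in the labels says that the embryos came from separate mothers or days, so the p-values measure the spread between these embryos.

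Ctcf itself (chromosome 8, 105636568 to 105682922, plus strand, GRCm38) stood at 2.92, 4.22 and 3.72 CPM in the MZ_KO embryos and at 78.9, 55.1, 67.7 and 68.5 CPM in the het embryos. The groups were far apart. Every MZ_KO embryo kept reads of the gene, 263 over that group against 5160 over the het embryos. The log2 difference was −3.89 (SE 0.23, limma adjusted p = 2.73e-08; exact permutation p = 0.0286, the smallest that 3 against 4 embryos allow). The table gives 1 value per gene, so which part of the transcript the remaining reads come from was not tested.

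Of 9585 genes tested, 673 were higher and 1038 lower in MZ_KO at an adjusted p under 0.05 (limma, Benjamini-Hochberg), 7.02% and 10.8% of the genes and 17.9% together. Without regard to the test, 26.9% of the genes did not overlap between the embryos of both groups. Falls were larger than rises: 735 of the lower genes but 263 of the higher genes differed by at least 2-fold, and 89 against 13 by at least 8-fold. The median log2 difference was 0.82 over the higher and −1.35 over the lower genes, and −0.06 over all tested genes. The median level of an embryo was lower in MZ_KO (5.27 against 5.39 on the log2 scale). When every embryo was centred on its own median, 961 genes were higher and 780 lower, and the median over all tested genes was 0.06, so that 55.2% instead of 39.3% of the calls were higher. All 673 higher and 780 of the 1038 lower genes were called on both scales. With MZ_KO 2 left out the calls fell to 1072, of which 354 were higher, and without het 6 there were 436 higher genes.

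**Figure D1:**
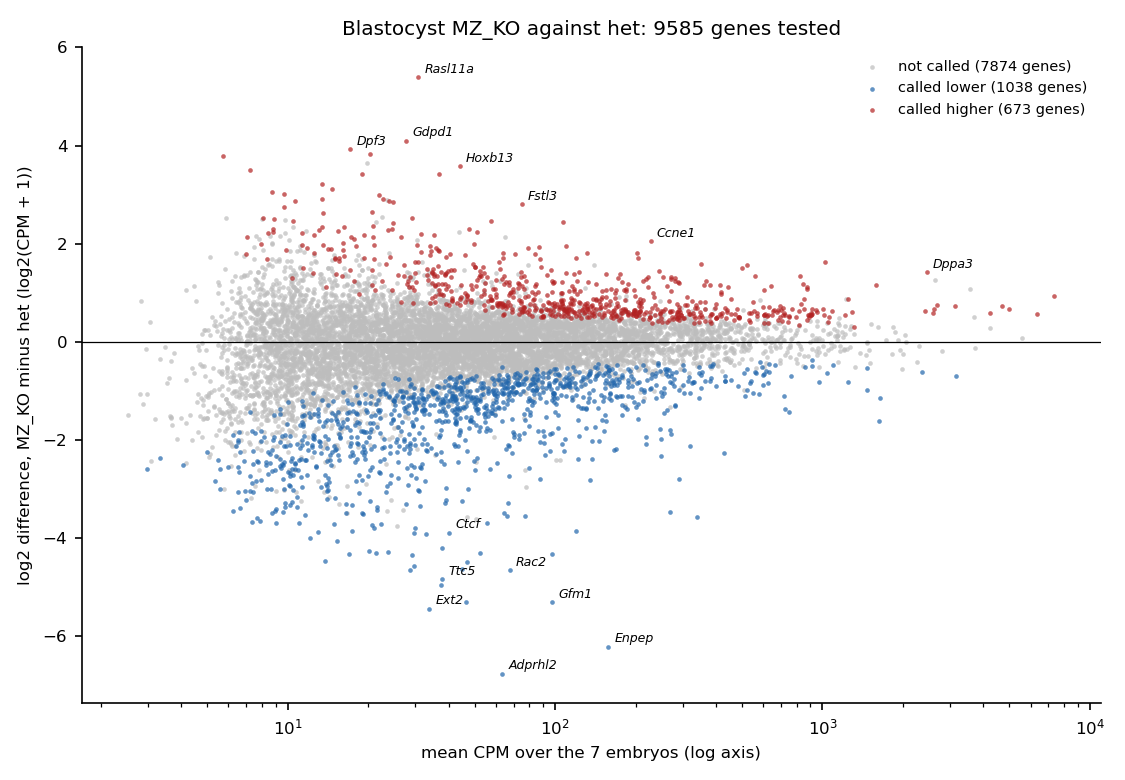
Log2 difference between 3 MZ_KO and 4 het blastocysts (vertical axis, log2(CPM + 1)) against the mean CPM over these 7 embryos (horizontal log axis) for 9585 genes, with called genes in red (673 higher) and blue (1038 lower). The deepest falls reach beyond −6 (Adprhl2, Enpep), while 1 gene, Rasl11a, rises beyond 5, and red points crowd towards the high levels at the right.

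Rises were more frequent at high levels. Among the fifth of the tested genes with the highest mean level 15.8% were called higher and 12.6% lower. Among the fifth with the lowest level 2.82% were higher and 6.83% lower. Of 139 processed pseudogenes 13.7% were higher and 2.88% lower, but reads of such copies and of their parent genes may be split between them by the counting.

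Several genes went from a few CPM or less to far higher levels. Rasl11a, a small GTPase of the Ras-like family, was at 79.98, 42.5 and 90.5 CPM in MZ_KO and at 0.417, 0.778, 1.49 and 0.106 CPM in het embryos (chromosome 5, 146845071 to 146847726). Every MZ_KO embryo was above every het embryo, as the choice required. The log2 difference was 5.40 (SE 0.80, limma adjusted p = 3.28e-04), and M_KO embryos, which share the prefix C7, held 1.37 ± 1.60 CPM (SD, n = 4).

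Gdpd1, a glycerophosphodiester phosphodiesterase, stood at 51.9, 55.8 and 75.3 CPM against 3.82, 2.67, 1.37 and 2.85 CPM, and rose by 4.10 (SE 0.65, limma adjusted p = 5.41e-04). Dpf3, a subunit of the BAF chromatin remodeller, stood at 31.4, 43.7 and 37.2 CPM against 0.209, 2.11, 1.24 and 3.66 CPM, and rose by 3.93 (SE 0.53, limma adjusted p = 1.44e-04). Neither gene overlapped between the groups, which the choice required, and Gdpd1 reached the 10 CPM needed for testing in MZ_KO embryos alone. M_KO embryos held 8.17 ± 3.05 CPM of Dpf3 (SD, n = 4).

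Transcription factors of later development were among the risen genes. Hand1, needed for giant cells of the trophoblast, was at 37.9, 65.4 and 30.2 CPM against 0.834, 1.67, 2.67 and 3.87 CPM. Hoxb13, a homeobox gene known from the posterior body and the prostate, was at 87.7, 137 and 52.5 CPM against 12.7, 2.33, 4.04 and 10.9 CPM. The groups lay apart for each, as the choice required. The log2 differences were 3.82 for Hand1 (SE 0.87, limma adjusted p = 0.00653) and 3.59 for Hoxb13 (SE 0.60, limma adjusted p = 8.40e-04). Hivep3, a large zinc finger protein, rose by 3.12 (limma adjusted p = 0.00295).

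The 12 largest rises also held Kng1, Fstl3, Hspg2 and Icam4. Kng1, the kininogen precursor, went from 7.24 ± 5.03 CPM (SD, n = 4) to 76.1 ± 28.6 CPM (SD, n = 3), a log2 difference of 3.43. Fstl3, a secreted activin antagonist, held 155, 138 and 148 CPM in MZ_KO and 15.5, 22.6, 31.3 and 14.6 CPM in het embryos, so that the MZ_KO embryos were close to each other and well above the rest. Hspg2, the basement membrane proteoglycan perlecan, rose by 3.21 (SE 0.68, limma adjusted p = 0.00430), and the adhesion protein Icam4 by 3.01 (SE 0.63, limma adjusted p = 0.00370).

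The transporters Slc6a12, for betaine and GABA, and Slc10a6, for steroid sulphates, completed the 12 largest rises among called genes without overlap and with at least 20 CPM in the higher group, with log2 differences of 2.91 and 2.86 (limma adjusted p = 0.0230 and 0.0310). Both calls were lost when any of several embryos was left out. The adjusted p of Slc6a12 was 0.0907 without MZ_KO 2, 0.0679 without MZ_KO 7, 0.0609 without het 5 and 0.0521 without het 6. That of Slc10a6 was between 0.0625 and 0.0941 when MZ_KO 2, 6 or 7 or het 6 or 8 was left out.

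The deepest fall was in Adprhl2 (chromosome 4, 126316047 to 126321703, minus strand), which encodes the hydrolase that takes ADP-ribose off serines. It had 1 read over the 3 MZ_KO embryos against 8848 reads over the 4 het embryos, which stood at 110, 115, 81.6 and 136 CPM. The ratio of the pooled levels was 8392, with a counting interval at 95% confidence from 1506 to 331520, which covers counting error only. Its limma adjusted p was 1.01e-11, and M_KO embryos held 108 ± 7.47 CPM (SD, n = 4).

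Ext2 (chromosome 2, 93661028 to 93822568, minus strand), a polymerase of heparan sulphate chains, was at 0, 0 and 1.58 CPM against 58.0, 55.2, 56.3 and 65.1 CPM. Reads came from MZ_KO 7 alone within that group. The log2 difference was −5.44 (SE 0.38, limma adjusted p = 1.73e-07), and M_KO embryos held 32.7 ± 12.6 CPM (SD, n = 4).

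The windows around the starts of both genes are printed because AGGGGGCG lies in each, and the CTCF core consensus in that of Ext2. They are RefSeq sequences of GRCm38.p6, from 250 bases before to 50 bases after the start, on the strand of the gene. Capitals mark the motif: in Ext2 the CTCF core consensus joined with AGGGGGCG, which overlaps its end, the first capital lying 36 bases before the start, and in Adprhl2 AGGGGGCG alone, its first capital 51 bases before the start. Both strands of every window were searched, and a match describes letters, not binding. AGGGGGCG also lay in the window of Hspg2, which rose in MZ_KO, with its first base at −244 from the start. That window is not printed.
Ext2 at chr2:93822519-93822818, minus strand: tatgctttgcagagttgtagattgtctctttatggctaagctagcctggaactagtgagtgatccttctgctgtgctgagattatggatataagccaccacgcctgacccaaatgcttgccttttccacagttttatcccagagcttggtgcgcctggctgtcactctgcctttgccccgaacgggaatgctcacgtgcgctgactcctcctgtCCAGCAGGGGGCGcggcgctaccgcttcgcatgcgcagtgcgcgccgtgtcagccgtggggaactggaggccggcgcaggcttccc
Adprhl2 at chr4:126321654-126321953, minus strand: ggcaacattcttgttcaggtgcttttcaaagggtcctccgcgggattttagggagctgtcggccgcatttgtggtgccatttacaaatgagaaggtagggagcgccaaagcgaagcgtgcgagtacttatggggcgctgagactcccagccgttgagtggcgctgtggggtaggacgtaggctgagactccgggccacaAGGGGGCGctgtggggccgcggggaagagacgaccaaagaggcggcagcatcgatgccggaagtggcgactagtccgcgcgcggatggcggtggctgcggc

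Over all genes, the CTCF core consensus was found in the windows of 16 of 832 protein-coding genes called lower (1.92%), of 62 of 7353 tested (0.843%) and of 0.636% of the 27025 genes of the promoter table. AGGGGGCG was found in 16.9%, 13.4% and 6.90% of the same sets. Windows were at hand for 81.9% of the lower and 81.0% of the tested genes. They were at hand for 77.7% of the higher genes, under the 80% needed, so no conclusion is drawn for that set. Its windows held the core in 6 of 491 genes (1.22%) and AGGGGGCG in 12.2%. Among genes tested and not called the shares were 0.663% and 13.1%. Whether the core goes with falls more than with rises was not tested. After Ext2, the lower genes with the core and the largest differences were Dennd6b (−3.59), Hs1bp3 (−3.36), Aqr (−3.24) and Rint1 (−2.75).

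Among the other deepest falls were a cell surface enzyme and a mitochondrial factor. Enpep, a cell surface aminopeptidase, was at 4.21, 0 and 6.86 CPM against 128, 287, 366 and 313 CPM, and Gfm1, a mitochondrial elongation factor, was at 3.62, 0.0918 and 13.7 CPM against 173, 188, 156 and 145 CPM. Neither gene overlapped, as the choice required, and MZ_KO 6 was the lowest for both. The log2 difference of Enpep (−6.21) was −5.32 without MZ_KO 6 and −6.81 without MZ_KO 7, and that of Gfm1 (−5.30) was −4.33 without MZ_KO 6 and −6.20 without MZ_KO 7. Enpep stood at 121 ± 22.3 CPM and Gfm1 at 171 ± 32.7 CPM in M_KO embryos (SD, n = 4).

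Ttc5, a cofactor in p53 responses and in the decay of tubulin messengers, was at 2.29, 0.276 and 1.81 CPM against 62.3, 52.4, 69.2 and 75.2 CPM, and fell by 4.84 on the log2 scale (SE 0.33, limma adjusted p = 1.40e-07). Ankrd46, an ankyrin repeat membrane protein, fell by 4.47 (SE 0.46, limma adjusted p = 1.05e-05) and Tbc1d9b, a Rab GTPase-activating protein, by 4.33 (SE 0.51, limma adjusted p = 3.34e-05). Sh3bp5, an exchange factor of Rab11, fell by 4.64 (log2 −3.96 without MZ_KO 6), and Adh1, an alcohol dehydrogenase, by 4.50, with −5.27 without MZ_KO 2 and −3.59 without MZ_KO 7.

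The remaining names among the 12 deepest falls, chosen in the same way, are known from blood cells. Rac2, a small GTPase of leukocytes, was at 2.08, 0.138 and 2.47 CPM against 65.0, 59.0, 337 and 7.54 CPM, with het 6 the highest and het 8 near the MZ_KO embryos. Laptm5, a lysosomal protein of lymphoid cells, and Coro1a, a coronin of leukocytes, were also highest in het 6, at 143 and 139 CPM, and had het 8 as the lowest het embryo. All of them were low in M_KO embryos too (Rac2 2.87 ± 4.57, Laptm5 2.64 ± 3.52 and Coro1a 8.31 ± 11.7 CPM, SD, n = 4), and MZ_KO did not differ from M_KO past the threshold (log2 −0.06, −1.10 and −1.77, limma adjusted p = 0.983, 0.586 and 0.429). The call of Rac2 ended without MZ_KO 6 (adjusted p = 0.0582) or het 6 (0.0504), and that of Coro1a when MZ_KO 2, 6 or 7 or het 5 or 6 was left out (0.0610 to 0.0902). The log2 differences of −4.66 for Rac2 and −4.58 for Coro1a were −5.58 and −5.47 without het 8. Laptm5 stayed called without het 6, with a log2 difference of −3.90 (adjusted p = 0.0443).

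Of the fixed list of blood cell markers 8 were tested and by limma 0 were called. Its summed level was 1639 to 7605 CPM in MZ_KO and 42.7 to 32242 CPM in het embryos, and het 6, at the top, also had the most reads of Rac2, Laptm5 and Coro1a. Of 7 tested oviduct and uterine epithelium markers 0 rose and 2 fell (28.6%, median −1.42), Msx1 and Ltf. Msx1 was at 0.750, 0 and 0.0369 CPM in MZ_KO and at 5.98, 11.1, 48.4 and 24.5 CPM in het embryos (log2 −3.89, SE 0.66, limma adjusted p = 9.33e-04). Ltf was highest in het 6 as well, at 102 CPM, and its log2 difference of −3.74 (SE 1.06, limma adjusted p = 0.0223) lost its call without MZ_KO 6 (0.0635), MZ_KO 7 (0.0595) or het 6 (0.0810), and was −4.37 without het 8. The macrophage gene Adgre1 was at 0.0417, 0 and 8.04 CPM in MZ_KO and at 41.6, 38.4, 241 and 0 CPM in het embryos. The part of such cells in other differences was not tested.

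Lineage genes moved in different directions. Krt8 of the trophectoderm stood between 1536 and 3252 CPM and Nanog of the epiblast between 93.4 and 432 CPM. Gata6, of the primitive endoderm but also made in other cells, stood between 90.8 and 235 CPM. Its presence does not show that lineage, and Gata4 was at 0 in MZ_KO 2 and 6. In whole embryos, fewer cells of a lineage and less of its RNA per cell cannot be told apart. All list counts below stand beside 7.02% higher and 10.8% lower over all tested genes. The lists were not matched for level, and in the fifth with the highest level 15.8% were higher and 12.6% lower.

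Of 21 tested regulators of the trophectoderm 2 rose and 4 fell (9.52% and 19%, against 7.02% and 10.8% over all tested genes, median log2 −0.48), and under median centring 2 rose and 2 fell. Of 20 surface and keratin genes 2 rose and 6 fell (10% and 30%, median −0.53), and 2 and 5 under median centring. Cdx2, the homeobox factor that commits cells to trophectoderm, stood at 149, 109 and 235 CPM against 198, 259, 246 and 233 CPM, and the groups overlapped through MZ_KO 7 (log2 −0.57, SE 0.26, limma adjusted p = 0.135). Gata3 (log2 −0.46, adjusted p = 0.185) and Tfap2c (0.45, adjusted p = 0.217), both trophectoderm factors, did not pass either.

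Eomes, the T-box factor of trophoblast stem cells, was at 41.6, 39.2 and 63.3 CPM against 96.5, 315, 319 and 148 CPM, without overlap (log2 −2.03, SE 0.40, limma adjusted p = 0.00260). Ets2, a factor in trophoblast renewal, kept 3 reads over the MZ_KO embryos, all in MZ_KO 2, against 821 in the het embryos, a ratio of pooled levels of 259.6 with a counting interval from 88.5 to 1261 (limma adjusted p = 0.00434). Elf3 and Id2 fell by 0.82 and 1.05, but Elf3 lost its call without MZ_KO 2, MZ_KO 6, het 5 or het 6 (adjusted p from 0.0874 to 0.173) and Id2 without MZ_KO 2, MZ_KO 7, het 6 or het 8 (from 0.0978 to 0.140). With median centring neither passed.

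At the cell surface, Alpl, tissue-nonspecific alkaline phosphatase, was at 37.8, 55.2 and 26.5 CPM against 310, 569, 451 and 435 CPM (log2 −3.46, SE 0.31, limma adjusted p = 2.55e-06). Every het embryo was several times above every MZ_KO embryo. Ndrg1 fell by 3.85 (SE 0.56; −3.21 without MZ_KO 6 and −4.45 without MZ_KO 7) and the FGF receptor Fgfr2 by 1.49 (SE 0.28, limma adjusted p = 0.00188). The keratin Krt8 fell by 0.61 (adjusted p = 0.0379), a call lost when MZ_KO 2, MZ_KO 6, het 5, het 6 or het 8 was left out (adjusted p from 0.0550 to 0.152). Against this direction, Cited1, a cofactor of the trophoblast, stood at 138, 123 and 91.7 CPM against 42.9, 23.5, 19.4 and 57.6 CPM and rose by 1.79 (SE 0.36, limma adjusted p = 0.00306). Plet1, a surface protein of trophoblast progenitors, rose by 0.83, a call lost without MZ_KO 6 (adjusted p = 0.0553).

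Of 23 epiblast and pluripotency genes 7 rose and 3 fell (median 0.27). Dppa3, also called Stella, which protects the methylation of the maternal genome in the zygote, was at 4436, 3514 and 3489 CPM against 1666, 1445, 1122 and 1476 CPM (log2 1.42, SE 0.14, limma adjusted p = 6.40e-06). Dppa2, its partner Dppa4 and Nanog, the homeobox factor of the epiblast, rose by 1.12, 0.69 and 1.25 (limma adjusted p = 3.01e-05, 0.00928 and 0.00210), each without overlap. Nanog stood at 292, 432 and 239 CPM against 133, 93.4, 167 and 140 CPM.

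Pou5f1, the pluripotency factor OCT4, was at 394, 440 and 436 CPM against 352, 263, 238 and 356 CPM. Its difference of 0.51 passed (adjusted p = 0.0409) but not when MZ_KO 2, 6 or 7 or het 5 or 6 was left out (0.0681 to 0.119). Klf4 did not pass (0.68, adjusted p = 0.173), and Sox2 was under the level needed for testing, at 13.2, 5.37 and 9.07 CPM against 8.34, 6.72, 8.52 and 7.68 CPM. Spp1, the secreted phosphoprotein osteopontin, went against the list, at 51.9, 45.7 and 111 CPM against 390, 505, 391 and 539 CPM (log2 −2.79, SE 0.26, limma adjusted p = 2.83e-06). Tdgf1, the Nodal co-receptor, was at 122, 101 and 210 CPM against 360, 327, 335 and 216 CPM (SE of the log2 difference 0.25, limma adjusted p = 0.00467).

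Primitive endoderm genes were lower in part: of 19 tested members 0 rose and 8 fell, and the median was −1.02. Gata6, which starts this lineage and is also made in other cells of the early embryo, did not differ past the threshold (146, 139 and 175 CPM against 150, 90.8, 112 and 235 CPM; log2 0.15, SE 0.27, limma adjusted p = 0.746). Its relative Gata4 and the SRY-box factor Sox17, both made later in this lineage, fell. Gata4 was at 0, 0 and 2.54 CPM against 7.85, 13.7, 23.4 and 73.9 CPM (adjusted p = 0.00144), and Sox17 at 9.08, 6.15 and 9.14 CPM against 18.6, 15.8, 76.3 and 127 CPM (log2 −2.24, SE 0.54, limma adjusted p = 0.00945). The het embryos were spread widely, with het 6 and het 8 high, and no MZ_KO embryo reached the lowest of them.

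The fitted log2 difference of Gata4 was −3.86, −4.46 without MZ_KO 7 and −3.27 without het 8. Lamb1, a laminin chain of the basement membrane that this lineage secretes, fell by 2.45 (SE 0.45, limma adjusted p = 0.00179) and the water channel Aqp8 was lower too (log2 −4.30, SE 0.91, limma adjusted p = 0.00409). Pdgfra, a receptor of this lineage, did not pass (−0.53, adjusted p = 0.250). Under median centring 6 of the 8 falls were kept.

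**Figure D2:**
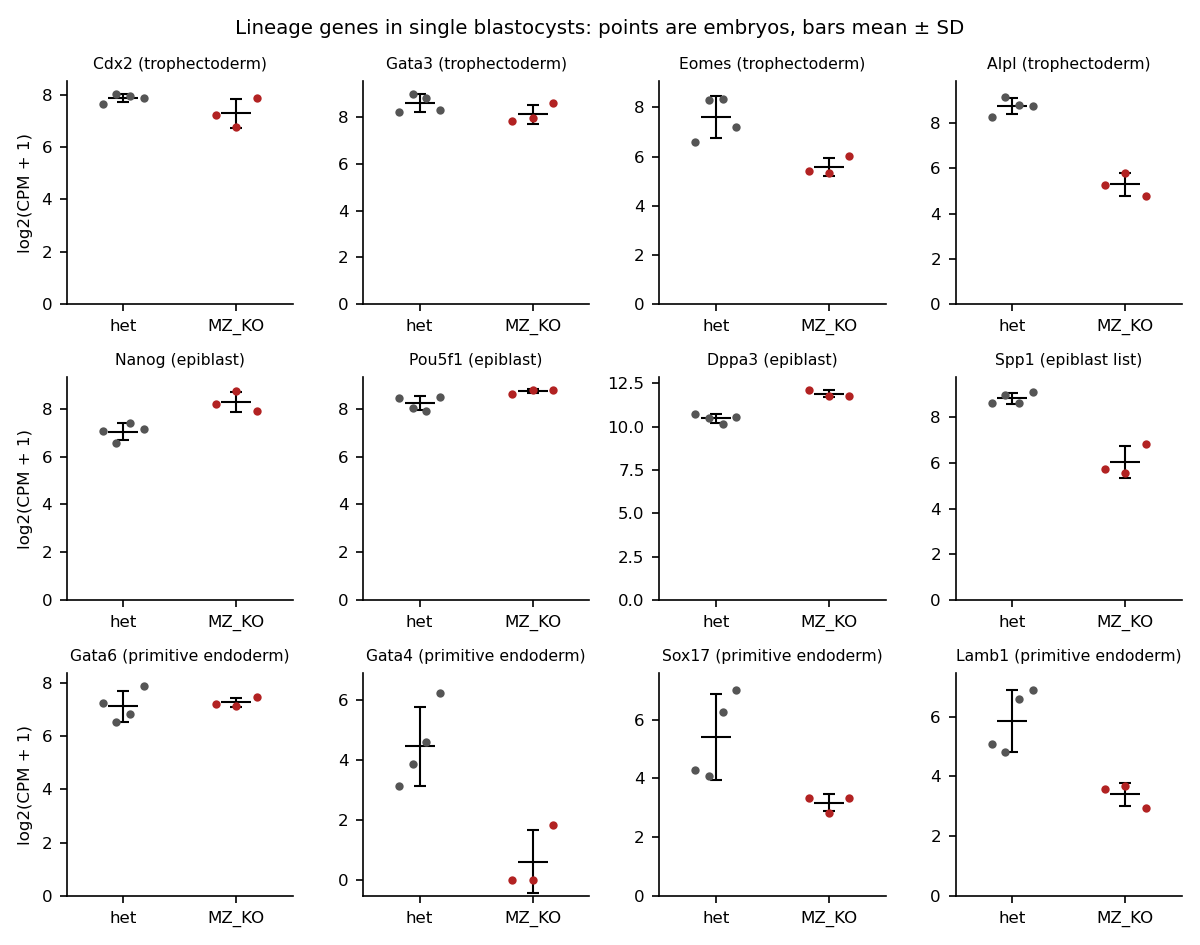
Levels of 12 lineage genes as log2(CPM + 1) in 4 het (grey) and 3 MZ_KO (red) blastocysts, with mean ± SD in black and each vertical axis starting at or just under 0. Nanog and Dppa3 are higher and Eomes, Alpl, Spp1, Gata4, Sox17 and Lamb1 lower in every MZ_KO embryo than in every het embryo, while the groups overlap for Cdx2, Gata3 and Gata6.

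Of 15 FGF and ERK genes 0 rose and 4 fell (26.7% lower, median −0.49), Fgfr2 and 3 others whose calls were lost when any of several embryos was left out. The ligand Fgf4 (adjusted p = 0.0440) lost its call without MZ_KO 2, MZ_KO 7, het 3, het 6 or het 8 (0.0827 to 0.201), the phosphatase Dusp6 (0.0150) without MZ_KO 2 (0.0796) or het 6 (0.0528), and the inhibitor Spry1 (0.0336) without MZ_KO 6, MZ_KO 7, het 6 or het 8 (0.0534 to 0.171). Of 19 Nodal, activin and BMP genes 2 rose and 2 fell (10.5% each, median 0.00). Of 27 Wnt genes 1 rose and 4 fell (14.8% lower, against 10.8% over all tested genes). The ligand Wnt3a was at 6.62, 18.1 and 6.67 CPM against 35.6, 46.8, 77.6 and 70.8 CPM (log2 −2.43, SE 0.34, limma adjusted p = 1.99e-04), and the ligand Wnt6 fell by 2.46 (SE 0.49, limma adjusted p = 0.00281). Of 19 Hippo pathway genes 2 rose and 0 fell, among them the YAP target Ccn2, at 43.4, 57.5 and 72.2 CPM against 12.7, 20.8, 14.4 and 17 CPM (log2 1.76, SE 0.41, limma adjusted p = 0.00740).

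Genes of the epithelium and its cavity were lower in part. Of 27 polarity and apical cortex genes 0 rose and 7 fell (median −0.31). Ezr, ezrin, which ties actin to the apical membrane, was at 32.6, 20.7 and 36.3 CPM against 227, 162, 209 and 259 CPM (log2 −2.82, SE 0.30, limma adjusted p = 1.64e-05). Its relative Msn, moesin, fell by 2.07 (SE 0.38; −2.75 without MZ_KO 7, the highest of its group at 183 CPM).

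Of 28 junction genes 2 rose and 5 fell (7.14% and 17.9%, against 7.02% and 10.8% over all tested genes, median −0.39). Cdh1, E-cadherin, was at 205, 345 and 451 CPM against 608, 585, 688 and 502 CPM, a fall of 0.90 (adjusted p = 0.0147) whose call was lost without MZ_KO 2 (0.0953). Ctnna1, alpha-catenin, which links cadherins to actin, fell by 0.89 (SE 0.18, limma adjusted p = 0.00260). Cldn7, a claudin, and Nectin2, an adhesion receptor, rose by 0.63 and 0.61 (limma adjusted p = 0.00832 and 0.00617).

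Among 16 pump and channel genes of cavitation 1 rose and 3 fell (6.25% and 18.75%, median −0.64). Atp1b1, the beta subunit of the sodium pump, was at 68.0, 43.9 and 73.3 CPM against 115, 118, 136 and 132 CPM (log2 −1.04, SE 0.21, limma adjusted p = 0.00290), and Aqp3, a channel for water and glycerol, rose from 280 ± 73.3 CPM (SD, n = 4) to 791 ± 218 CPM (SD, n = 3) (SE of the log2 difference 0.31, limma adjusted p = 0.00396). Of 45 actin genes 3 rose and 9 fell (6.67% and 20%). Lcp1, L-plastin, an actin bundler of trophectoderm and leukocytes, stood at 113, 108 and 147 CPM against 374, 830, 1045 and 373 CPM (log2 −2.27, SE 0.30, limma adjusted p = 1.01e-04). M_KO embryos, in which Rac2 and Coro1a were low, held 513 ± 69.8 CPM of Lcp1 (SD, n = 4). Actn2, an alpha-actinin of muscle, rose by 2.45 (SE 0.34, limma adjusted p = 1.65e-04).

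**Figure D3:**
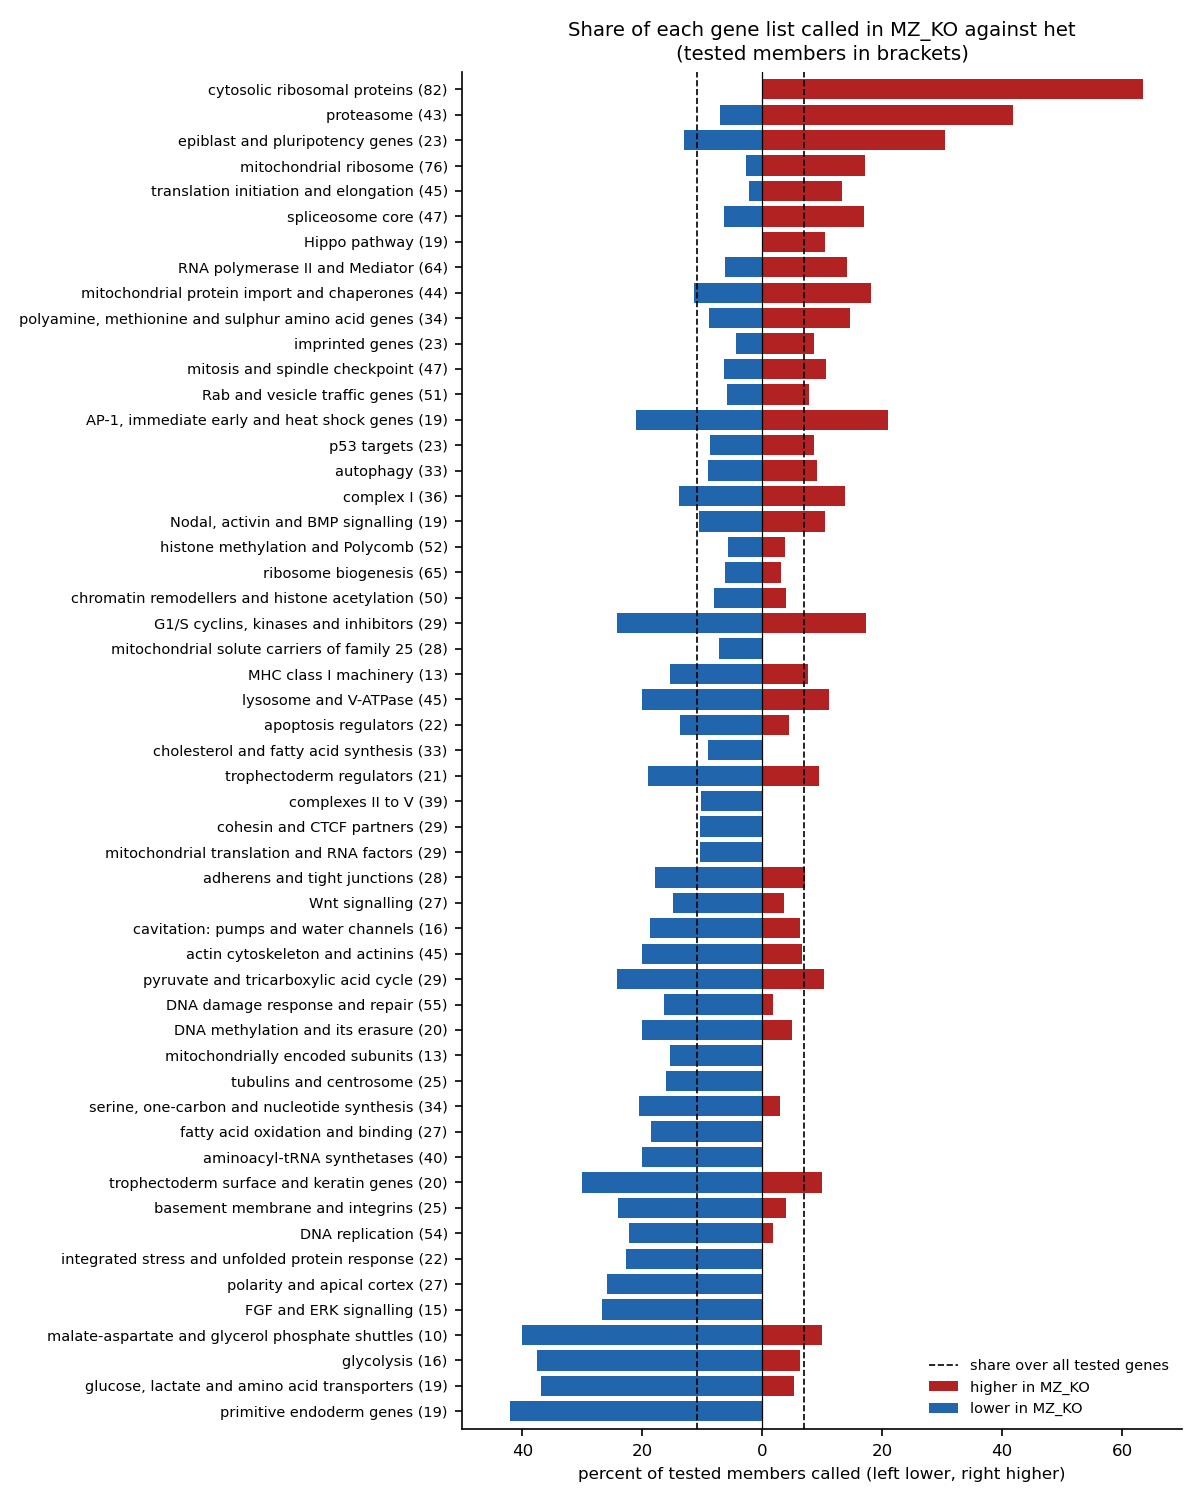
Percent of the tested members of each gene list called lower (blue, to the left) and higher (red, to the right) in MZ_KO, for lists with at least 10 tested members, with dashed lines at the shares over all tested genes (10.8% and 7.02%). Cytosolic ribosomal proteins and the proteasome stand out to the right, and the primitive endoderm, transporter and glycolysis lists to the left.

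RNA of fuel transporter and glycolysis genes was lower in part, and uptake and flux were not measured. Of 19 transporters for glucose, lactate and amino acids 1 rose and 7 fell (median −0.79), and of 16 glycolysis genes 1 rose and 6 fell (median −0.33). Slc2a1, the glucose transporter GLUT1, was at 9.79, 10.4 and 19.5 CPM against 104, 52.4, 26.7 and 79.2 CPM (log2 −2.13, SE 0.44, limma adjusted p = 0.00342). Slc16a1, the monocarboxylate transporter MCT1, was at 83.3, 109 and 95.5 CPM against 184, 262, 325 and 214 CPM (log2 −1.33, SE 0.19, limma adjusted p = 2.07e-04). The groups lay apart for both, with het 6 the nearest for Slc2a1.

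The isomerase Gpi1 fell by 0.97 (SE 0.18, limma adjusted p = 0.00186) and the pyruvate kinase Pkm by 0.84 (SE 0.16, limma adjusted p = 0.00191). Ldha, lactate dehydrogenase A, was at 7.21, 4.50 and 18.5 CPM against 38.6, 31.2, 110 and 58.3 CPM. Its fall of 2.49 (adjusted p = 0.0287) lost its call without MZ_KO 2, MZ_KO 6, het 6 or het 8 (0.0528 to 0.113), and M_KO embryos, at 21.1 ± 21.3 CPM (SD, n = 4), did not differ from MZ_KO past the threshold (−0.70, adjusted p = 0.585). Tigar, a phosphatase that slows glycolysis, rose by 1.03 (SE 0.20, limma adjusted p = 0.00217). Under median centring 3 of the 6 glycolysis falls and 4 of the 7 transporter falls were kept.

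The malate-aspartate shuttle, which carries reducing power into mitochondria, had several lower members: of 10 shuttle genes 1 rose and 4 fell (median −0.54). Got2, the mitochondrial aspartate aminotransferase, was at 14.3, 9.64 and 7.63 CPM against 89.4, 93.9, 118 and 135 CPM (log2 −3.28, SE 0.23, limma adjusted p = 1.73e-07). Its cytosolic counterpart Got1 was at 155, 157 and 167 CPM against 332, 308, 284 and 266 CPM (log2 −0.89, SE 0.17, limma adjusted p = 0.00196). Slc25a11, the carrier for oxoglutarate and malate, and Mdh1, cytosolic malate dehydrogenase, fell by 1.38 and 1.12 (limma adjusted p = 0.00126 and 0.00326). All 4 falls were kept under median centring. Gpd1l, of the glycerol phosphate branch, rose by 1.34 (SE 0.28, limma adjusted p = 0.00406).

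Around pyruvate and the citric acid cycle, 3 of 29 genes rose and 7 fell (median −0.37). Cytosolic Idh1, an isocitrate dehydrogenase, fell by 1.05 (SE 0.19, limma adjusted p = 0.00130). Mitochondrial Idh2 rose by 0.83 (SE 0.16, limma adjusted p = 0.00212) and the pyruvate carrier subunit Mpc1 by 0.87 (SE 0.18, limma adjusted p = 0.00412).

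Respiratory chain genes were called in both directions. Of 36 complex I genes 5 rose and 5 fell (13.9% each, median 0.14), against 7.02% higher and 10.8% lower over all tested genes. Of 39 genes of complexes II to V 0 rose and 4 fell (10.3% lower, near the share over all tested genes, median 0.05). Of 13 mitochondrially encoded subunits 0 rose and 2 fell (15.4% lower, median −0.26). Ndufb7, a membrane arm subunit of complex I, was at 24.5, 18.2 and 20.5 CPM against 80.6, 106, 97.5 and 111 CPM (log2 −2.18, SE 0.19, limma adjusted p = 1.67e-06). The subunits Ndufb10 and Ndufab1 fell by 1.20 and 1.09, and Ndufs5 rose by 0.73 (limma adjusted p = 7.17e-04, 7.09e-04 and 0.00901). Atp5g2, a ring subunit of ATP synthase, fell by 1.48 (SE 0.24, limma adjusted p = 7.75e-04). The mitochondrially encoded mt-Co1, of cytochrome oxidase, was at 739, 391 and 1299 CPM against 2252, 2508, 2682 and 1544 CPM (log2 −1.61, SE 0.35, limma adjusted p = 0.00480).

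Of 27 genes of fatty acid oxidation and binding 0 rose and 5 fell (18.5% lower, median −0.41). Fabp5, a fatty acid-binding protein, was at 7.79, 9.97 and 4.64 CPM against 164, 192, 122 and 182 CPM (log2 −4.33, SE 0.27, limma adjusted p = 4.03e-08). The thiolase Acaa2 fell by 1.57 (SE 0.15, limma adjusted p = 4.09e-06). Of 33 genes of cholesterol and fatty acid synthesis 0 rose and 3 fell, and the 9.09% lower lay under the 10.8% over all tested genes.

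**Figure D4:**
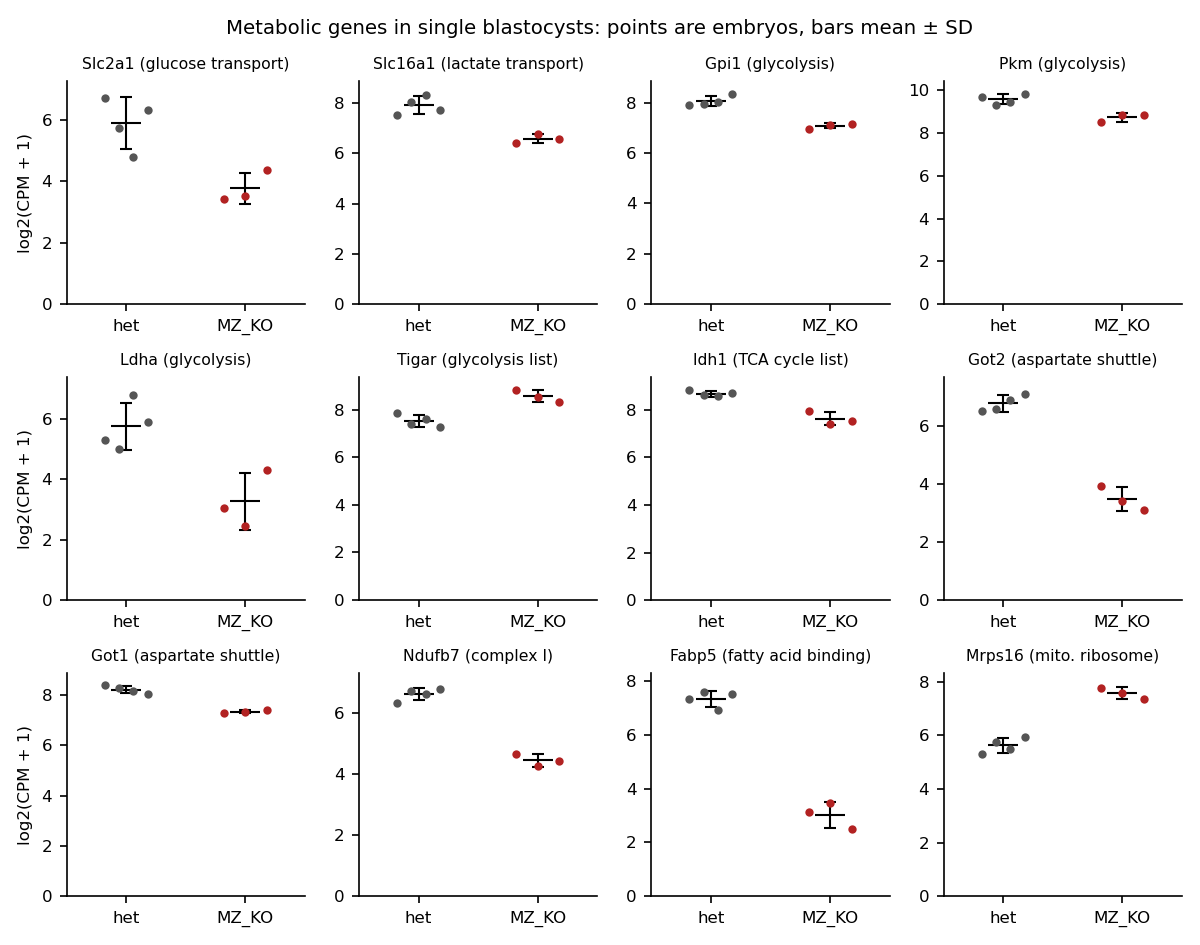
Levels of 12 metabolic genes as log2(CPM + 1) in 4 het (grey) and 3 MZ_KO (red) blastocysts, with mean ± SD in black and vertical axes from 0. Tigar and Mrps16 are higher in every MZ_KO embryo, and the other 10 genes are lower in every MZ_KO embryo, with Fabp5 and Got2 the farthest apart.

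Amino acid and nucleotide synthesis genes moved in different directions. Of 34 genes of serine, one-carbon and nucleotide synthesis 1 rose and 7 fell (median −0.27), with Phgdh, the first enzyme of serine synthesis, up by 1.08 (SE 0.24, limma adjusted p = 0.00613) and the purine enzyme Gart down (log2 −1.12, SE 0.20, limma adjusted p = 0.00123). Of 34 genes of polyamines, methionine and sulphur amino acids 5 rose and 3 fell. Ahcy, which removes S-adenosylhomocysteine, was at 485, 346 and 399 CPM against 161, 164, 156 and 190 CPM (log2 1.28, SE 0.18, limma adjusted p = 1.65e-04), and Cbs, which draws homocysteine towards cysteine, fell by 1.99 (SE 0.33, limma adjusted p = 7.17e-04). Asns, asparagine synthetase, was at 7, 4.59 and 3.39 CPM against 34.8, 46.2, 96.5 and 198 CPM (log2 −3.70, SE 0.49, limma adjusted p = 1.20e-04), 1 of 5 lower genes and 0 higher among 22 genes of the unfolded protein and integrated stress responses.

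Cytosolic ribosomal proteins were higher in most cases. Of 82 tested, 52 rose and 0 fell, with a median of 0.48 against −0.06 over all tested genes. Together they took 3.96% ± 0.360 of the scaled library in MZ_KO (SD, n = 3) and 2.95% ± 0.345 in het embryos (SD, n = 4; exact permutation p = 0.0571). Rpl35a, of the large subunit, was at 453, 405 and 363 CPM against 237, 225, 226 and 275 CPM (limma adjusted p = 8.10e-04), and Rpl31 rose by 0.79 (SE 0.13, limma adjusted p = 9.86e-04). These short messengers have many pseudogenes, so single members are uncertain where reads could be split between copies. Median centring gave 61 higher and 0 lower.

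Other translation lists moved in smaller numbers. Of 45 initiation and elongation genes 6 rose and 1 fell (median 0.21), with Eif4ebp1, an inhibitor of cap-dependent initiation, at 1028, 798 and 744 CPM against 441, 415, 302 and 512 CPM (log2 1.05, SE 0.17, limma adjusted p = 6.09e-04). Of 65 ribosome biogenesis genes 2 rose and 4 fell (median −0.09, and 0.03 under median centring). Of 40 aminoacyl-tRNA synthetases 0 rose and 8 fell (median −0.22), among them mitochondrial Aars2 (log2 −2.91, and −2.27 without MZ_KO 2 and −3.55 without MZ_KO 6) and Iars2 (log2 −2.10, SE 0.34, limma adjusted p = 6.68e-04).

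Of 76 genes of the mitochondrial ribosome 13 rose and 2 fell (median 0.31). Mrps16 was at 219, 193 and 163 CPM against 38.4, 53.3, 44.3 and 60.4 CPM (log2 1.95, SE 0.22, limma adjusted p = 2.80e-05). Mrps2 went the other way, at 6.75, 17.8 and 4.42 CPM against 80.1, 103, 126 and 124 CPM (log2 −3.54, SE 0.31, limma adjusted p = 1.87e-06). Both belong to the small subunit and neither overlapped between groups. Of 29 mitochondrial translation and RNA factors 0 rose and 3 fell (10.3% lower, against 10.8% over all tested genes). They were Gfm1 and Tsfm, which act in elongation, and the initiation factor Mtif2, whose call was lost without MZ_KO 2 (adjusted p = 0.0587). Gfm1 alone fell by more than 5 on the log2 scale (−5.30, with −4.33 without MZ_KO 6 and −6.20 without MZ_KO 7).

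Of 43 proteasome genes 18 rose and 3 fell (median 0.39). Psma5, of the core ring, was at 1046, 817 and 778 CPM against 591, 604, 458 and 598 CPM (log2 0.64, SE 0.13, limma adjusted p = 0.00338), and the regulatory subunits Psmd12 and Psmc2 rose by 0.58 and 0.61 (limma adjusted p = 0.00369 and 0.00429). Psmd6, of the same regulatory particle, fell by 0.57 (SE 0.14, limma adjusted p = 0.00879), and Psmb9, a subunit of the immunoproteasome, by 2.21 (SE 0.54, limma adjusted p = 0.01). B2m, beta-2-microglobulin of class I MHC molecules, was at 392, 332 and 274 CPM against 68.9, 136, 171 and 45.6 CPM (log2 1.82, SE 0.35, limma adjusted p = 0.00214), while M_KO embryos held 79.0 ± 23.1 CPM (SD, n = 4).

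Of 45 lysosome and V-ATPase genes 5 rose and 9 fell (11.1% and 20%, against 7.02% and 10.8% over all tested genes). The risen ones were mainly pump subunits, such as Atp6v0b (0.87, SE 0.17, limma adjusted p = 0.00290), and the fallen ones were hydrolases and their helpers, such as the protease Ctsb (−1.36, SE 0.21, limma adjusted p = 4.83e-04) and the thioesterase Ppt1 (−1.69, SE 0.31, limma adjusted p = 0.00186). Of 33 autophagy genes 3 rose and 3 fell, with Map1lc3b, the LC3 protein of autophagosomes, up by 0.76 (SE 0.12, limma adjusted p = 4.83e-04) and the receptor Optn down (−1.50, SE 0.25, limma adjusted p = 8.30e-04). Rab29, a small GTPase of the Golgi and lysosome, was at 158, 146 and 151 CPM against 45.2, 38.1, 33.4 and 39.6 CPM.

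**Figure D5:**
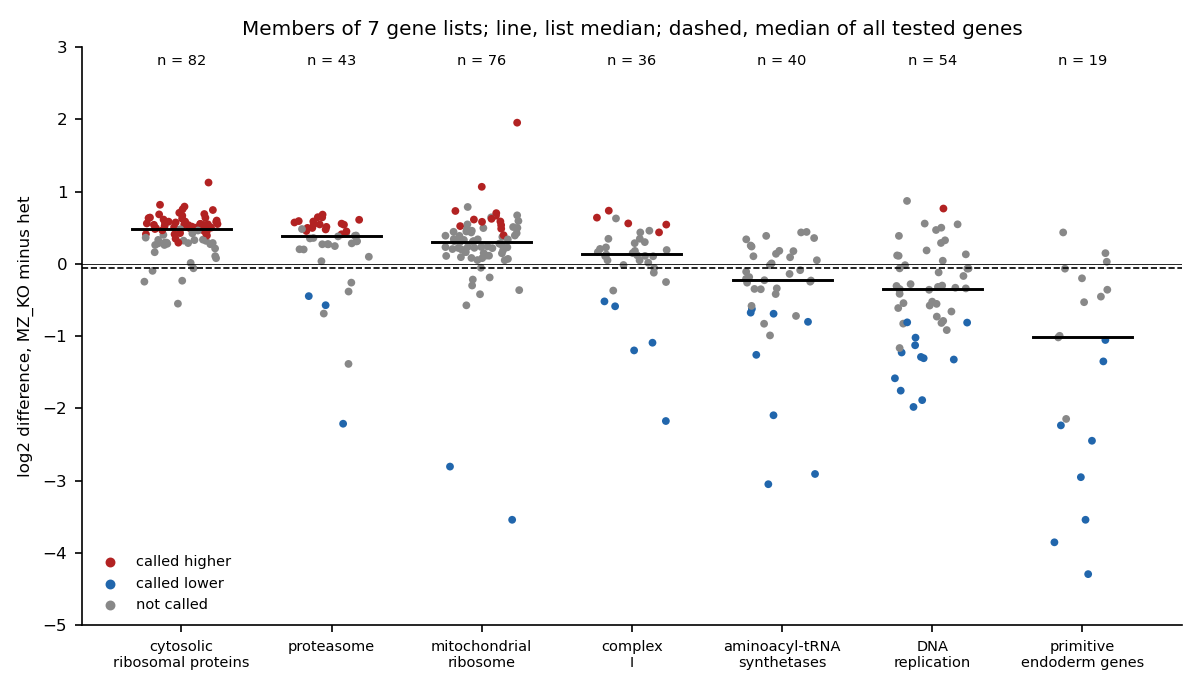
Log2 difference (MZ_KO minus het) of every tested member of 7 gene lists, with the list median as a black line, the median over all tested genes (−0.06) as a dashed line, and called members in red or blue. Ribosomal proteins lie mostly in a narrow band above 0 with 52 of 82 called higher, while the mitochondrial ribosome, complex I and proteasome bands carry single members far below.

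DNA replication genes were lower in part. Of 54 replication genes 1 rose and 12 fell (median −0.35). Rpa1, which coats single-stranded DNA, was at 28.2, 31.2 and 21.6 CPM against 89, 97.8, 98.6 and 123 CPM (log2 −1.89, SE 0.21, limma adjusted p = 2.11e-05). Rfc5, a clamp loader subunit, was at 59.2, 75.3 and 73.9 CPM against 207, 242, 169 and 227 CPM (log2 −1.59, SE 0.19, limma adjusted p = 4.21e-05). In both the highest MZ_KO embryo was below the lowest het embryo. Pold1, of polymerase delta, fell by 1.31 (limma adjusted p = 0.00118), and 11 falls remained under median centring.

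Of 29 G1/S genes 5 rose and 7 fell (17.2% and 24.1%, against 7.02% and 10.8% over all tested genes). Ccne1, cyclin E1, was at 399, 373 and 405 CPM against 147, 61.7, 56.4 and 151 CPM, and its partner Cdk2 at 137, 146 and 151 CPM against 238, 371, 285 and 252 CPM. The 2 genes went opposite ways without overlap, with log2 differences of 2.05 for Ccne1 (SE 0.35, limma adjusted p = 0.00106) and −0.96 for Cdk2 (SE 0.17, limma adjusted p = 0.00108). Cdc25c, a phosphatase of mitotic entry, rose by 1.33 (SE 0.22, limma adjusted p = 6.68e-04).

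Cdkn1a, the p53 target p21, was at 82.6, 70.1 and 97.4 CPM against 7.65, 18.4, 7.02 and 72.5 CPM. Only het 8 of the het embryos reached into the MZ_KO range. Its rise of 2.24 (adjusted p = 0.0156) lost its call without MZ_KO 2 (0.0521) or het 6 (0.0516) and was 2.92 without het 8. Of 23 p53 targets 2 rose and 2 fell (8.70% each), and of 22 apoptosis regulators 1 rose and 3 fell (4.55% and 13.6%).

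Of 55 DNA damage and repair genes 1 rose and 9 fell (median −0.45). Brca1, of homologous recombination, was at 11.4, 15 and 19 CPM against 48.1, 53.9, 39.0 and 25.6 CPM (log2 −1.38, SE 0.28, limma adjusted p = 0.00355), and Fanca, of crosslink repair, fell by 2.07 (SE 0.42, limma adjusted p = 0.00295). Of 47 mitosis genes 5 rose and 3 fell (10.6% and 6.38%, against 7.02% and 10.8% over all tested genes). Among the risen were the centromere histone Cenpa (0.56) and the kinase Aurka (0.44). Both calls were lost without MZ_KO 2 (adjusted p = 0.0700 and 0.0816) and that of Aurka also without MZ_KO 6 (0.0632). Tubb5, a beta-tubulin, fell by 1.98 (SE 0.24, limma adjusted p = 5.69e-05), 1 of 4 lower genes and 0 higher among 25 of tubulins and the centrosome.

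Of 29 cohesin and CTCF partner genes 0 rose and 3 fell (10.3%, against 10.8% over all tested genes), Ctcf itself, the meiotic cohesin subunit Stag3 (log2 −2.40, SE 0.46, and −1.79 without MZ_KO 7) and the condensin subunit Ncaph, whose call was lost when MZ_KO 2, 6 or 7 or het 3, 5 or 6 was left out (adjusted p from 0.0656 to 0.117). Of 20 DNA methylation genes 1 rose and 4 fell (5% and 20%, against 7.02% and 10.8%). Uhrf1, which brings the maintenance methyltransferase to replicated DNA, was at 34.4, 82.6 and 53.9 CPM against 209, 174, 154 and 202 CPM (log2 −1.76, SE 0.26, limma adjusted p = 3.22e-04), and the maintenance enzyme Dnmt1 fell by 1.33, a call lost without MZ_KO 6 (adjusted p = 0.103) or het 6 (0.0504). Kdm1a, the histone demethylase LSD1, was at 68.2, 35.2 and 19.3 CPM against 131, 124, 134 and 159 CPM (log2 −1.89, SE 0.29, limma adjusted p = 4.38e-04), while 2 rose and 3 fell among 52 genes of histone methylation and Polycomb.

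Of 23 imprinted genes 2 rose and 1 fell, and 0 clustered protocadherins reached the level needed for testing. Snrpn, a paternally expressed splicing factor, rose by 0.63 (SE 0.13, limma adjusted p = 0.00408), and H13, a signal peptide peptidase, was at 63.9, 31.4 and 47.8 CPM against 107, 112, 99.1 and 111 CPM (log2 −1.21, SE 0.23, limma adjusted p = 0.00223). In the RNA machinery, of 47 core spliceosome genes 8 rose and 3 fell (median 0.20), such as Snrpb (0.73, SE 0.14, limma adjusted p = 0.00210), and of 64 genes of RNA polymerase II and Mediator 9 rose and 4 fell, such as Polr2l up by 0.91 (limma adjusted p = 0.00151) and Polr2c down (log2 −1.15, limma adjusted p = 4.70e-04). Of 7 tested maternal and oocyte genes 3 rose and 0 fell, namely Dppa3, Khdc3, of the maternal complex under the oocyte surface, and Uchl1, a ubiquitin hydrolase. Khdc3 was at 3397, 2949 and 3241 CPM against 2014, 2314, 1944 and 2239 CPM (log2 0.59, SE 0.11, limma adjusted p = 0.00237), and Uchl1 lost its call without MZ_KO 2, MZ_KO 6, het 3 or het 6 (adjusted p from 0.0520 to 0.0862).

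Of 9544 pairs of neighbouring tested genes 337 were both called. Of these, 234 (69.4%) went one way, and 28 runs of at least 3 such genes, 14 higher and 14 lower, held 96 genes. Over all tested genes 17.9% were called, and 39.3% of the calls were higher. Whether neighbours were called together more often than other genes was not tested. Overlapping entries count as neighbours: Nme2, Gm20390 and Nme1 span 18.7 kb, and the pseudogene 2210409E12Rik lies inside Coil. One run on chromosome 6, from 122505845 to 122714633, was higher and held Mfap5, Gdf3, Dppa3 and Nanog. Mfap5, a microfibril protein, was at 40.1, 12.8 and 18.7 CPM against 5.07, 3.17, 3.61 and 4.19 CPM, a rise of 2.17 whose call was lost without MZ_KO 2 (adjusted p = 0.0974). Gdf3, a TGF-beta ligand, rose by 1.01 and lost its call without MZ_KO 2 (0.0615) or MZ_KO 7 (0.0596). The glucose transporter Slc2a3, which starts beyond Nanog at 122727809 on the same chromosome, went the other way, at 242, 308 and 360 CPM against 607, 537, 587 and 378 CPM (log2 −0.79, SE 0.25, limma adjusted p = 0.0374), a call lost under median centring (adjusted p = 0.0684).

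A lower run on chromosome 2, from 150618105 to 150904741, held Acss1, Platr15, Entpd6, Pygb and Abhd12. Abhd12, a lysophospholipase, was at 30.1, 22.3 and 39.3 CPM against 145, 137, 142 and 152 CPM, the het embryos being almost alike (log2 −2.23, SE 0.19, limma adjusted p = 1.71e-06). Platr15, a noncoding RNA, and Entpd6, a nucleotidase, fell by 2.24 and 1.22 (limma adjusted p = 6.03e-04 and 0.00396). Acss1 and Pygb lost their calls without MZ_KO 2 (adjusted p = 0.155 and 0.101) or het 6 (0.0852 and 0.0587), and also Acss1 without het 5 (0.0618) and Pygb without MZ_KO 6 (0.0718).

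On chromosome 8 a lower run of Prmt7, Cdh1 and Tango6 (106210936 to 106851439) and a second one of Marveld3, Tat, Vac14, Sf3b3 and Cog4 (109947914 to 110882227) lay at higher coordinates than Ctcf. Left-out embryos ended the calls of 7 of these 8 genes, with highest adjusted p from 0.0831 (Tango6) to 0.209 (Cog4), each without MZ_KO 2 except Prmt7 (MZ_KO 6) and Vac14 (MZ_KO 7). Of their 8 genes Tat alone, tyrosine aminotransferase, kept its call whichever embryo was left out (log2 −2.13, SE 0.42, limma adjusted p = 0.00273). On chromosome 11, from 88924020 to 88991613, a higher run held Scpep1, a carboxypeptidase, at 694, 963 and 873 CPM against 282, 245, 265 and 341 CPM (log2 1.57, SE 0.18, limma adjusted p = 3.32e-05), and Coil, of Cajal bodies, which rose by 0.67 (limma adjusted p = 0.0110). A higher run on chromosome 5 from 146832890 to 146955614 held Rasl11a between Rpl21 and Gtf3a, whose own calls each ended when single embryos were left out (Rpl21 without MZ_KO 2 or 7 or het 3, 5 or 6, 0.0514 to 0.119, and Gtf3a without MZ_KO 2 or 7 or het 3, 6 or 8, 0.0553 to 0.145). The runs of Tmem254a and of Gm16427 include near-identical copies, between which reads cannot be assigned with certainty. By chromosome, 9.25% (X) to 23.5% (14) of the tested genes were called.

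M_KO embryos (n = 4), which share the prefix C7 with MZ_KO, kept Ctcf at 69.5 ± 15.6 CPM (SD). Against them 358 genes were higher and 775 lower in MZ_KO, 11.8% of those tested, and this comparison uses the same MZ_KO embryos. M_KO against het gave 0 calls by limma (0.0%), with 638 genes at an unadjusted p under 0.05 and a lowest adjusted p of 0.564. Values of single genes in MZ_KO against M_KO were −3.03 for Got2, −4.30 for Fabp5, −2.26 for Slc2a1, −3.75 for Alpl and 1.26 for Dppa3 (limma adjusted p = 5.54e-07, 4.37e-08, 0.00332, 1.17e-06 and 2.51e-05). For others the difference from M_KO did not pass, as for Pou5f1 (0.11, adjusted p = 0.704), Gpx4, a lipid peroxidase of glutathione (0.36, 0.176), and Aqp3 (0.66, 0.188).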

How the data were processed

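RNA of single CD1 blastocysts was made into libraries with an ultra low input SMART-Seq kit, which does not mark strand, per the labels' protocols. The submitters' processing notes name cutadapt 1.14, Bowtie2 2.2.9, RSEM 1.3.1 and the build GRCm38 (mm10), with no roles or order. The authors deposited log2 values of scaled read counts (CPM) with an offset of 0.5 reads. Taking 2 to the power of each value and subtracting the column's floor gave CPM, and the implied reads were whole within 0.01 for 100% of values. Of 15585 entries 3 (LacZ, Neomycine, Puromycin) name no mouse gene and stayed out of totals and tests, and 0 columns belonged to other samples.

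The 14 blastocysts entered tests of genes that reached 10 CPM in 3 or more embryos, on log2(CPM + 1) with limma 3.58.1 (R 4.3.3, trended, 1 fit of group means over all 14 embryos, two-sided, Benjamini-Hochberg, threshold 0.05), after the code was tested on simulated data. Exact two-sided permutation tests served for library measures. Counting intervals are at 95% confidence and cover counting error only. Positions are from GENCODE M21. Plots come from matplotlib 3.10.9 under Python 3.11.15.

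The members and lists were chosen with earlier results of these data known. Genes named were, per direction, the 12 largest called differences without overlap and with at least 20 CPM in the higher group, up to 4 called members of each list per direction by adjusted p, a fixed set of lineage and metabolic markers, genes of runs of called neighbours, and promoters with the motif. Outside this rule Ddx3y, Eif2s3y, Adgre1, Slc2a3, Dennd6b, Hs1bp3, Aqr and Rint1 were chosen after their values were seen. Alternatives changed the pseudocount, filter, scaling, scale, samples in the fit, variance model, motif and embryos.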

Additional observations from a re-analysis of the deposited data

Results flagged for a closer look

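In groups of 4 embryos, 1 embryo was looked for that lay far from the other 3 relative to the group's range. Of 381 values looked at in the het embryos 18 (4.72%) had one, and chance sets apart about 1 in 20 groups. Of these embryos 9 were het 6, 4 het 5, 4 het 8 and 1 het 3.

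Het 6 was high for the summed oviduct and uterine epithelium markers (806 CPM), and for Laptm5 (143 CPM), Ltf, lactoferrin (102 CPM), Nars2, a mitochondrial tRNA synthetase (29.0 CPM), and Ndrg1 (371 CPM). It was low for Chaf1a, of the histone chaperone CAF-1 (74.1 CPM), Phgdh (444 CPM), Psma5 (458 CPM) and Sdr39u1, a short-chain dehydrogenase (48.0 CPM). The other het embryos held 119 to 179 CPM of the oviduct markers, and MZ_KO embryos 99.98 to 161 CPM. The part of such cells in other values of het 6 was not tested.

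Het 5 was high for Cbs (205 CPM) and low for Fgf4 (16.2 CPM), the splicing helicase Snrnp200 (124 CPM) and the ribosome biogenesis factor Tsr1 (109 CPM). Het 8 was low for Acadm, of fatty acid oxidation (232 CPM), and high for the mitotic gene Gtse1 (115 CPM), Rpl24 (310.4 CPM) and Tubb5 (512.5 CPM). Het 3 was high for Pole4, of polymerase epsilon (130.5 CPM).

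LacZ, an entry of the table that is no mouse gene and entered no test, stood at 48.7, 86.5 and 114 CPM in MZ_KO 2, 6 and 7, a mean of 83.1 CPM, and at 36.1, 27.8, 23.3 and 24.8 CPM in het 3, 5, 6 and 8. Every MZ_KO embryo was above every het embryo. The other entries of this kind went the other way without overlap. Neomycine was at 0 in each MZ_KO embryo and at 4.80, 11.8, 8.33 and 11.8 CPM in the het embryos, and Puromycin at 0.417, 0 and 0 CPM against 4.66, 5.17, 9.51 and 8.91 CPM. The labels do not say which alleles carry them.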

How the results depend on the processing

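No paired analysis was possible because the labels link no MZ_KO embryo to a het embryo. Number 6 occurs in both groups, but under different prefixes (C7 and N89), and marks no pair. With 1 embryo left out, the genes called ranged from 1072 (without MZ_KO 2) to 1603 (without het 8), against 1711, and those higher from 354 (without MZ_KO 2) to 654, with 436 without het 6. The Ctcf difference ranged from −68.1 to −60.1 CPM over these settings, with exact permutation p of 0.0667 or 0.1, the smallest those numbers of embryos allow. Without het 6 the haemoglobin share and the blood cell markers turned to higher in MZ_KO, by 0.0167 percentage points and 92.4 CPM, the top of ranges that began at −1.02 points and −10641 CPM without het 8. AGGGGGCG was in 16.9% of the lower genes' windows, against 1.92% for the core. Median centring moved the split of calls to 961 higher and 780 lower. A covariate for the sets of numbers in the column names, chosen after seeing the data, gave 598 higher and 903 lower. With only MZ_KO and het embryos in the fit, 1286 genes were called. Of 365 called genes named by the rule, 138 lost the call in some alternative, 137 of them when 1 embryo was left out, and 0 reversed. The named genes were chosen partly by size or adjusted p. Among all 1711 calls, 288 rises out of 673 and 491 falls out of 1038 stayed called whichever embryo was left out. The cause of the lost calls was not tested. The groups hold 3 and 4 embryos, and genes that did not reach 10 CPM in 3 embryos were not tested.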
